A study of Mus musculus with 9 samples.

Results

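The dystrophin and sarcoglycan complex was followed through 6 genes, Dmd, Utrn, Dag1, Sgca, Sgcb and Sgcd, of the 43629 genes counted in each library. They were chosen by symbol, as the rows whose Ensembl identifier carries these names in the GENCODE mouse annotation. No measured value was part of that rule, but earlier results of these data were known when the members were chosen. Dmd, Sgca and Sgcd were set apart as muscle-restricted members, and Utrn, Dag1 and Sgcb as widely expressed ones. Ventricles were taken from the hearts of embryos of CD-1, an outbred mouse strain, at embryonic day 13.5, and those of a litter were pooled. Their cells were cultured for 48 h, transfected with 0.012 pmol of siRNA by lipofection, and harvested 72 h later. Cells carrying VCAM1, a surface protein used here to enrich cardiomyocytes, were then collected on magnetic columns, and poly(A) RNA was sequenced. The 3 groups of 3 libraries differed in the siRNA: a commercial negative control, a pool of 4 siRNAs against DNMT3a, or a pool of 4 against DNMT3b, the enzymes that set new DNA methylation. No library from untransfected cells was analysed here, so every group carried an siRNA. Nothing in the labels tells whether the 3 libraries of a group are separate litters or cultures. P-values therefore measure the spread among these libraries alone, and that spread may be technical.

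The complex ties the actin skeleton of a muscle cell to the matrix around it. Dystrophin (Dmd), or its close relative utrophin (Utrn) in many other cells, binds actin inside the cell and the tail of beta-dystroglycan at the membrane; alpha-dystroglycan, cut from the same Dag1 product, holds laminin outside. Alpha-, beta- and delta-sarcoglycan (Sgca, Sgcb and Sgcd) sit in the membrane beside dystroglycan as parts of 1 subcomplex that steadies it, and loss of dystrophin or of a sarcoglycan causes muscular dystrophy and cardiomyopathy.

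In GRCm38 coordinates, Dmd (ENSMUSG00000045103) lies on the plus strand at chrX:82948870-85206141 and spans 2257.3 kb. Utrn (ENSMUSG00000019820) lies on the minus strand at chr10:12382188-12869365, and Dag1 (ENSMUSG00000039952) on the minus strand at chr9:108204634-108263958. The sarcoglycan genes are also on the minus strand: Sgca (ENSMUSG00000001508) at chr11:94962791-94976327, Sgcb (ENSMUSG00000029156) at chr5:73632749-73647790, and Sgcd (ENSMUSG00000020354) at chr11:46896253-47988969. No exon of the 6 genes shares bases with an exon of another counted gene. DNMT3a and DNMT3b methylate cytosines that are followed by guanine (CG), so the 250 bases before a transcription start are shown for the members whose level changed after an siRNA. The sequences are RefSeq's (GRCm38.p6), written 5′ to 3′ on the gene's strand with each CG in capitals, and Dmd has a start at its beginning and another far inside the gene.
Dmd, upstream start, chrX:82948620-82948869, plus strand: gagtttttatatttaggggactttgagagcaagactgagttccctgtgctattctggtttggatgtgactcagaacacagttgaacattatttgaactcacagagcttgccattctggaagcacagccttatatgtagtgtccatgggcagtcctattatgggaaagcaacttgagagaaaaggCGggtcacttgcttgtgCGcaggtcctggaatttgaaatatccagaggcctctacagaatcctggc
Dmd, internal start, chrX:85048045-85048294, plus strand: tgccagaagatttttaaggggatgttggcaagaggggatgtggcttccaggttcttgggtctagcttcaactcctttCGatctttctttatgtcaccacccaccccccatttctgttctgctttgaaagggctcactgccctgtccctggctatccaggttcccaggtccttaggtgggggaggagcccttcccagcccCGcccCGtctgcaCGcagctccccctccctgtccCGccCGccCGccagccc
Sgca, chr11:94976328-94976577, minus strand: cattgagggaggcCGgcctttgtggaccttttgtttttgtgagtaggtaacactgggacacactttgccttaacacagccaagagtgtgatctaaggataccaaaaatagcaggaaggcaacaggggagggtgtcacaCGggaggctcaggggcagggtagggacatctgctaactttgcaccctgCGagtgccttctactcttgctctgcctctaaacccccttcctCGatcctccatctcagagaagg
Dag1, chr9:108263816-108264065, minus strand: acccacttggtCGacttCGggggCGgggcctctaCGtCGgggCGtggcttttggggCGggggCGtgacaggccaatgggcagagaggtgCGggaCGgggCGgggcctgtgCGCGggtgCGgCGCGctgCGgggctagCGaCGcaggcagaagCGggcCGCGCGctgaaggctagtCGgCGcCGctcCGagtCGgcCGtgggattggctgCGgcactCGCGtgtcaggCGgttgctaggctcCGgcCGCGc

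The upstream Dmd window held 2 CG, the internal Dmd window 7 and the Sgca window 4. The median over the 32841 RefSeq windows of this length was 6. The Dag1 window held 36 CG in 74.8% G+C, and 97.4% of all windows held fewer. Among the windows not printed, Sgcb had 14 CG, Sgcd 9 and Utrn 2, and a second Dag1 window, beginning farther upstream, had 21. Their starts differ from GENCODE's for Sgcd (609.6 kb inside the gene) and Utrn (7.6 kb inside), so the CG counts of these genes hold for RefSeq's starts alone. Both strands were searched for the E-box (CANNTG), the CArG box, the MEF2 site and the M-CAT element (CATTCC), matches that could overlap each other. The upstream Dmd window held 1 CArG box, found in 1.5% of all windows, 1 MEF2 site, found in 2.9%, and 2 E-boxes, found in 66.2%. The printed Sgca and Dag1 windows each held 1 E-box and none of the other motifs. Sgcd's window had 1 M-CAT element, found in 12.6% of all windows. A match is only a run of letters, and DNA methylation was not measured in these libraries.

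The internal Dmd start lies 2099.4 kb from the beginning of the gene and gives rise to the short dystrophin made in many tissues. Of the 79 exons of the longest annotated transcript, 62 lie before it and 17 after it, with 36.8% of the transcript's bases. The counts are per gene, so full-length muscle dystrophin and the short products cannot be separated in the values below.

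The targeted genes matched the labels. Dnmt3a fell after DNMT3a siRNA from 259 ± 23.2 to 46.5 ± 6.33 CPM (counts scaled by the TMM method to a common library total; mean ± SD, n = 3), and Dnmt3b fell after DNMT3b siRNA from 4.30 ± 0.0372 to 1.70 ± 0.652 CPM. The libraries held 27852412 to 35896018 reads counted in genes. Reads with more than 1 genomic match, which enter no gene's count, made up 36.6% to 40.1% of the totals after DNMT3a siRNA and 41.3% to 42.5% in the other 6 libraries. The labelled cell type is the cardiomyocyte. Of 16 cardiomyocyte marker genes all were measured and summed to 2608 to 3466 CPM in controls, while 10 fibroblast markers, collagen genes among them, summed to 39023 to 58585 CPM. Of 10 skeletal muscle markers, Myod1, Myf5, Myog, Myf6, Pax7 and Myh3 had at most 6 reads in any library. Tnni2 had 2 to 14 reads, Tnnt3 8 to 84, Actn3 77 to 226 and Myh8 161 to 453.

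Per kilobase of exon, Dag1 was by far the most abundant member in the control libraries. Its level was 118 ± 7.46 CPM per kb of merged exons (mean ± SD, n = 3), followed by Utrn at 14.1 ± 0.608 and Sgcb at 11.4 ± 0.537. Dmd stood at 2.02 ± 0.155, Sgcd at 1.04 ± 0.434 and Sgca at 0.992 ± 0.436 CPM per kb. The 3 widely expressed members thus all lay above the 3 muscle-restricted ones. Neighbours in this order did not overlap between control libraries, except Sgcd and Sgca, whose libraries ran from 0.722 to 1.53 and from 0.642 to 1.48 CPM per kb. Taking the longest annotated transcript as the length raised Dmd to 3.23 and Sgcd to 1.92 CPM per kb and left the order as it was.

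**Figure D1:**
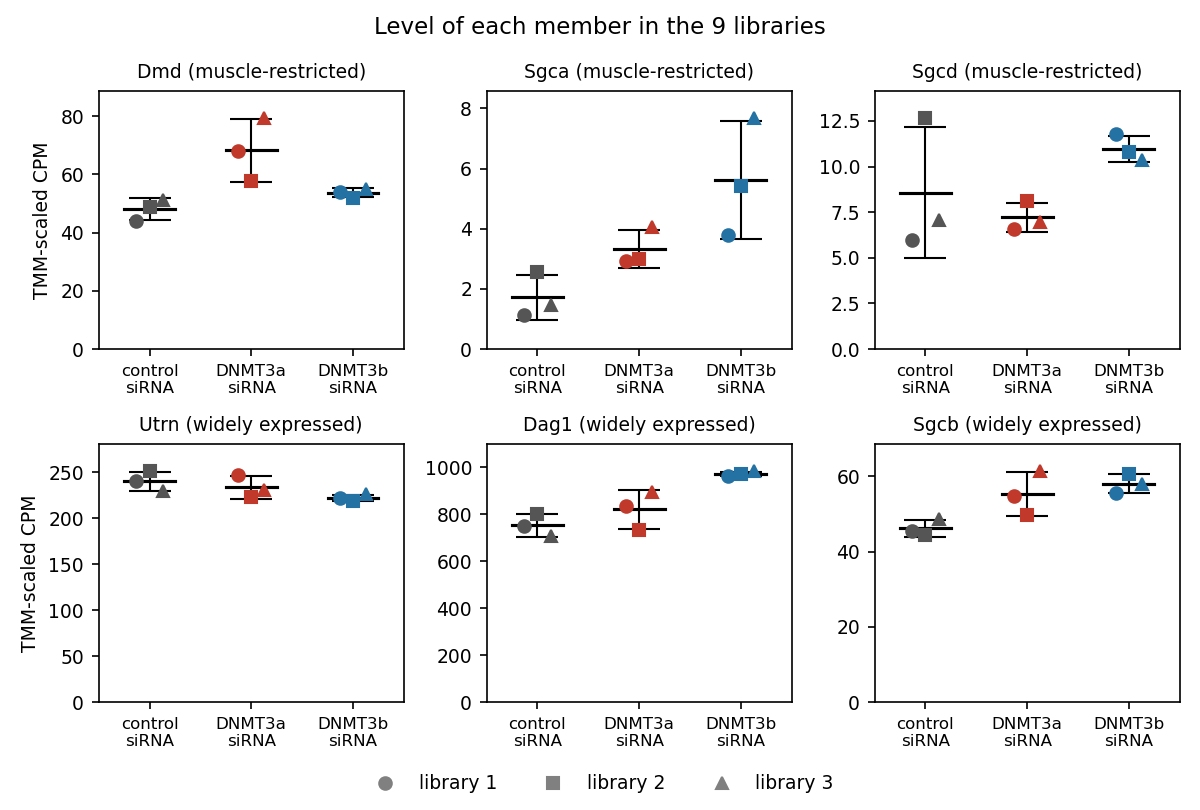
Level of the 6 genes in each library, in TMM-scaled CPM on axes that start at 0; points are libraries, wide bars the group mean and error bars 1 SD (n = 3). Dmd was highest after DNMT3a siRNA, Sgca and Dag1 after DNMT3b siRNA, and control 2 lay far above the other controls for Sgcd.

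Dmd, the actin link of the complex in muscle, was higher after DNMT3a siRNA. No other member passed there in the fit without a block, and Sgca passed beside it with the library number as a block or with DESeq2. In the control libraries 1 to 3 Dmd had 44.1, 48.8 and 51.3 CPM, after DNMT3a siRNA 68.1, 57.7 and 79.3 CPM, and after DNMT3b siRNA 54.1, 52.0 and 55.0 CPM. Every DNMT3a library lay above every control library and above every DNMT3b library, and the DNMT3b libraries lay just above the controls. Against control, Dmd was 1.42-fold higher after DNMT3a siRNA, a log2 fold change of 0.51 ± 0.11 (standard error; 95% interval 0.26 to 0.75; adjusted p = 0.0167). Adjusted p-values are edgeR's quasi-likelihood test with Benjamini-Hochberg adjustment over the 16561 genes tested, with a change called under 0.05. After DNMT3b siRNA the log2 fold change was 0.16 ± 0.11 (interval -0.09 to 0.41; adjusted p = 0.449). These are bulk libraries, in which a change in the share of cells that express a gene and a change in RNA per cell cannot be told apart. The DNMT3a call rested on few libraries: it missed the threshold without control 1 (0.45, adjusted p = 0.0566), DNMT3a 1 (0.51, adjusted p = 0.0544) or DNMT3a 3 (0.39, adjusted p = 0.0556), and in a fit of the 2 compared groups alone (0.49, adjusted p = 0.0631), with adjusted p from 0.000786 to 0.0631 over all 17 alternatives.

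Utrn, the relative of dystrophin that does the same work in many non-muscle cells and in immature muscle, did not pass in any comparison. It had 240.2, 251 and 230.3 CPM in controls, 248, 223 and 231 CPM with DNMT3a siRNA, and 222, 219 and 226 CPM with DNMT3b siRNA. The DNMT3a libraries overlapped the controls, while all 3 DNMT3b libraries lay below them by a small margin. The log2 fold changes against control were -0.04 ± 0.07 for DNMT3a siRNA (interval -0.20 to 0.12; adjusted p = 0.79) and -0.11 ± 0.07 for DNMT3b siRNA (interval -0.27 to 0.05; adjusted p = 0.405). Scaled by library size alone, the DNMT3a value was 0.01 (adjusted p = 0.967). Within a library, Dmd had 0.184, 0.195 and 0.223 reads for each Utrn read in controls, 0.275, 0.259 and 0.343 after DNMT3a siRNA, and 0.244, 0.237 and 0.243 after DNMT3b siRNA. This ratio, which no scaling between libraries can move, was higher in all 6 siRNA-treated libraries than in the 3 controls.

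Dag1, whose product is cut into the laminin-binding and the dystrophin-binding dystroglycan, was higher after DNMT3b siRNA. Controls had 748, 802 and 708 CPM, DNMT3a libraries 837, 732 and 894 CPM, and DNMT3b libraries 962, 971 and 983 CPM. The DNMT3b libraries lay close together above all others, and the DNMT3a libraries overlapped the controls. Dag1 was 1.29-fold higher after DNMT3b siRNA (log2 fold change 0.37 ± 0.09, interval 0.16 to 0.58; adjusted p = 0.045), whereas the value for DNMT3a siRNA was 0.13 ± 0.09 (interval -0.08 to 0.33; adjusted p = 0.464). The Dag1 call lay at the edge of the threshold. It was lost without control 1 (adjusted p = 0.126), control 3 (0.16), DNMT3a 1 (0.0694), DNMT3b 1 (0.0782), DNMT3b 2 (0.15) or DNMT3b 3 (0.204), and with size factors in place of TMM (0.0528). Over the alternatives adjusted p lay between 0.00452 and 0.204, with log2 fold changes from 0.32 to 0.41.

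Sgca, alpha-sarcoglycan, the sarcoglycan found in striated muscle only, was the member with the largest fitted fold change in either comparison with control. It had 1.11, 2.57 and 1.48 CPM in controls (40 to 79 reads), 2.92, 3.00 and 4.06 CPM after DNMT3a siRNA (90 to 124 reads), and 3.78, 5.41 and 7.68 CPM after DNMT3b siRNA (123 to 219 reads). All 6 treated libraries lay above the 3 controls, of which control 2 was the highest, and the DNMT3b libraries overlapped the DNMT3a ones. After DNMT3b siRNA Sgca was 3.27-fold higher (log2 fold change 1.71 ± 0.34, interval 0.97 to 2.45; adjusted p = 0.0149). This call missed the threshold without control 3 (1.61, adjusted p = 0.0718), DNMT3b 2 (1.73, adjusted p = 0.0536) or DNMT3b 3 (1.40, adjusted p = 0.0778), with adjusted p from 4.01e-05 to 0.0778 over the alternatives. After DNMT3a siRNA the log2 fold change was 0.95 ± 0.34 (interval 0.21 to 1.70; adjusted p = 0.105), which did not pass. In a fit of all 9 libraries with the library number as a block, it was 0.97 with an adjusted p of 0.0344. Equal numbers deviated together in the DNMT3a and control libraries, but less so in the DNMT3b libraries (r with control 0.212, 0.101 and 0.033). Without control 2 the log2 fold change after DNMT3a siRNA was 1.37 (adjusted p = 0.0233), and with DESeq2 0.94 (adjusted p = 0.0492), within a range of adjusted p from 0.0233 to 0.264.

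Sgcb, beta-sarcoglycan, a core subunit made in muscle and in many other tissues, had 45.5, 44.5 and 48.6 CPM in controls, 54.8, 49.9 and 61.3 CPM with DNMT3a siRNA, and 55.5, 60.6 and 58.0 CPM with DNMT3b siRNA. All 6 treated libraries lay above the controls, but neither comparison passed. The log2 fold changes were 0.26 ± 0.09 for DNMT3a siRNA (interval 0.06 to 0.46; adjusted p = 0.0981) and 0.33 ± 0.09 for DNMT3b siRNA (interval 0.13 to 0.53; adjusted p = 0.0602). The DNMT3b value passed with DESeq2 (0.32, adjusted p = 0.0265), with library size alone (0.36, adjusted p = 0.0324), without DNMT3a 2 (0.31, adjusted p = 0.048) and without DNMT3a 3 (0.33, adjusted p = 0.0493), in a range from 0.0265 to 0.219. The DNMT3a value passed with library size alone (0.31, adjusted p = 0.0408), in a range from 0.0408 to 0.293.

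Sgcd, delta-sarcoglycan, which pairs with beta-sarcoglycan in that core, had 5.96, 12.7 and 7.07 CPM in controls, 6.56, 8.12 and 6.97 CPM with DNMT3a siRNA, and 11.8, 10.8 and 10.4 CPM with DNMT3b siRNA. Control 2 lay above every other library, so the controls overlapped both treated groups, while all DNMT3b libraries lay above all DNMT3a libraries. The log2 fold change was -0.24 ± 0.24 after DNMT3a siRNA (interval -0.78 to 0.29; adjusted p = 0.595) and 0.36 ± 0.24 after DNMT3b siRNA (interval -0.17 to 0.89; adjusted p = 0.419). Single control libraries moved these values. Without control 1 they were -0.45 after DNMT3a siRNA and 0.15 after DNMT3b siRNA, and without control 3 they were -0.36 and 0.24. Without control 2 the DNMT3a value turned to 0.15 (adjusted p = 0.598) and the DNMT3b value rose to 0.76 and passed (adjusted p = 0.0121), in ranges of adjusted p from 0.256 to 0.793 and from 0.0121 to 0.779. Control 2 was also the control with the highest cardiomyocyte markers, at a mean of 6.90 log2 CPM over the 16 genes against 6.19 and 6.46. It was likewise the highest control in summed fibroblast (58585 CPM), smooth muscle and pericyte (8593 CPM), endothelial and endocardial (132 CPM) and skeletal muscle markers (20.8 CPM). In epicardial, macrophage and neural markers it was not the highest. The part of any of these cell types in the Sgca and Sgcd values of control 2 was not tested.

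Counted together after DNMT3a siRNA, 1 of the 6 members was higher, 0 lower, and 5 did not pass, where 10.1% of all 16561 tested genes were called (4.87% higher and 5.22% lower). Members whose libraries did not overlap with the controls numbered 3 (Dmd, Sgca and Sgcb, all above), against 26.7% of all genes. After DNMT3b siRNA 2 of the 6 members were higher, 0 lower, and 4 did not pass, where 5.64% of genes were called (3.52% higher and 2.12% lower). There 5 members did not overlap with the controls (Dmd, Sgca, Dag1 and Sgcb above, Utrn below), against 26.1% of all genes. All 6 passed the filter on low counts. The members' median log2 fold change was 0.20 after DNMT3a siRNA and 0.34 after DNMT3b siRNA, and that of all tested genes was 0.02 and 0.00. With 6 genes these counts move by 1 or 2 between settings, and both comparisons share the control libraries.

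**Figure D2:**
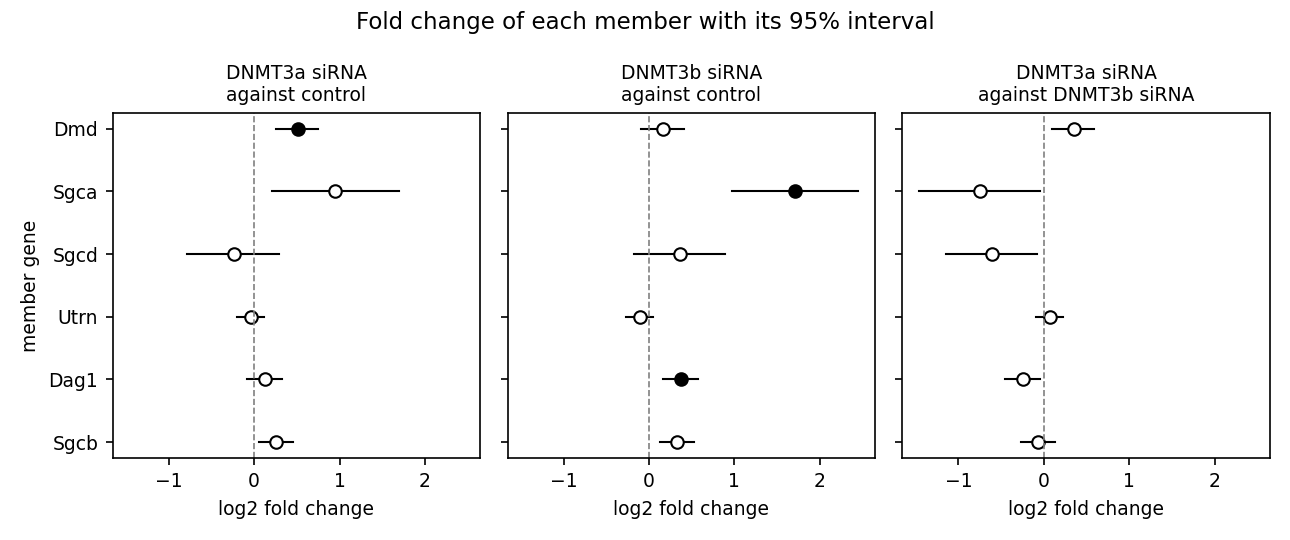
Log2 fold change of each gene with its 95% interval in the 3 comparisons; filled points passed at an adjusted p under 0.05 (edgeR, n = 3 per group), open points did not. Dmd is filled for DNMT3a siRNA, Sgca and Dag1 for DNMT3b siRNA, and no gene is filled when the siRNAs are compared with each other.

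Compared directly, DNMT3a siRNA and DNMT3b siRNA libraries differed in no member at an adjusted p under 0.05 by edgeR's quasi-likelihood test. The count was 0 of 6, with 4 of 6 at an unadjusted p under 0.05, and it was also 0 by DESeq2 and by limma-voom. Of all tested genes 9.55% were called (4.47% higher after DNMT3a siRNA and 5.08% lower). Dmd was 0.35 ± 0.11 higher after DNMT3a siRNA on the log2 scale (interval 0.10 to 0.59; adjusted p = 0.0774). Sgcd differed by -0.61 ± 0.24 (interval -1.14 to -0.08; adjusted p = 0.143), Sgca by -0.75 ± 0.32 (interval -1.46 to -0.05; adjusted p = 0.171) and Dag1 by -0.24 ± 0.09 (interval -0.45 to -0.04; adjusted p = 0.134). For Utrn the difference was 0.07 ± 0.07 (interval -0.09 to 0.23) and for Sgcb -0.07 ± 0.09 (interval -0.27 to 0.13). The libraries of the 2 groups did not overlap for 3 of the 6 members (Dmd above, Sgcd and Dag1 below), against 32.3% of all genes. Thus, in edgeR's fit of all 9 libraries without a block, Dmd passed against control after DNMT3a siRNA alone. Sgca and Dag1 passed there after DNMT3b siRNA alone, but none of these contrasts between the siRNAs did. Under some alternatives, given above, Sgca passed after DNMT3a siRNA too. Dmd passed between the siRNAs without DNMT3a 2 (0.46, adjusted p = 0.0178), with library size alone (0.37, adjusted p = 0.0437) and with no filter on low counts (0.36, adjusted p = 0.031). It also passed with the library number as a block (0.34, adjusted p = 0.0369), in a range from 0.0178 to 0.247. Sgcd passed without control 2 (-0.60, adjusted p = 0.017) and in a fit of the 2 groups alone (-0.61, adjusted p = 0.0169), in a range from 0.0169 to 0.351.

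Within each library, the muscle-restricted members stood on average closer to the widely expressed ones after either siRNA, with overlap between DNMT3a and control libraries. The mean log2 CPM of Dmd, Sgca and Sgcd minus that of Utrn, Dag1 and Sgcb was -4.89, -4.14 and -4.59 in controls. It was -4.35, -4.15 and -4.14 after DNMT3a siRNA, and -4.08, -4.01 and -3.83 after DNMT3b siRNA. The group means were -4.54 ± 0.38, -4.21 ± 0.12 and -3.97 ± 0.13 (SD, n = 3), and control 2 lay among the DNMT3a libraries. The DNMT3b libraries all lay above the controls, whereas the DNMT3a libraries overlapped them. Sgca had the largest log2 fold changes of the muscle-restricted members, 0.95 after DNMT3a siRNA and 1.71 after DNMT3b siRNA. Dmd had 0.51 and 0.16, and Sgcd -0.24 and 0.36. The mean of this set thus leaned most on Sgca, which had 40 to 79 reads in controls. The split did not hold gene by gene in the fit without a block. After DNMT3a siRNA Dmd passed, while Sgca, Sgcd and all widely expressed members did not. After DNMT3b siRNA Sgca passed and Dmd and Sgcd did not, and Dag1 passed and Utrn and Sgcb did not.

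**Figure D3:**
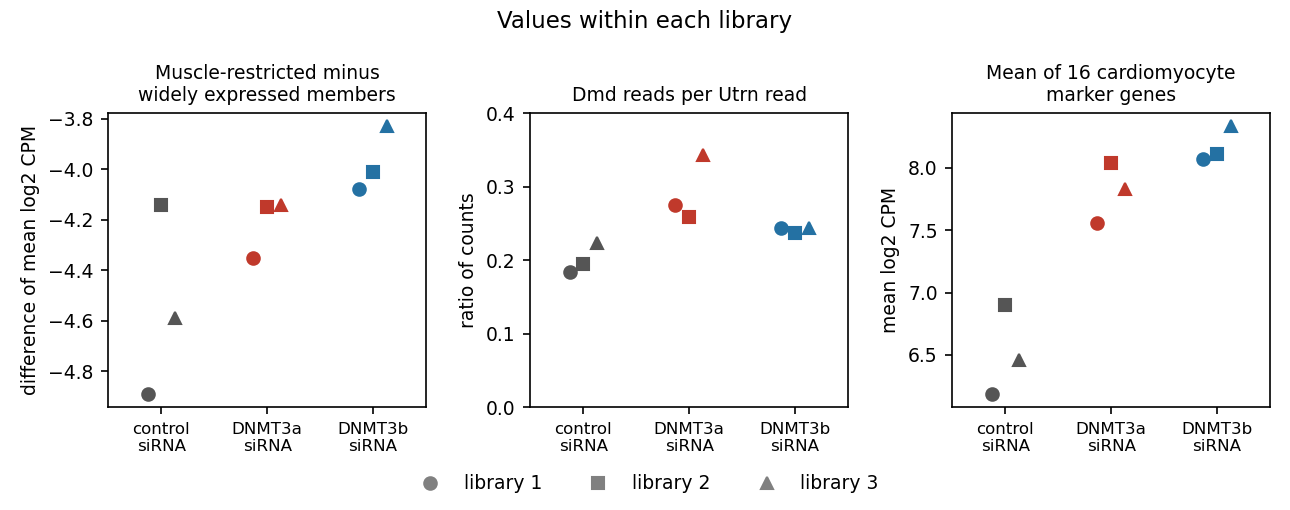
Each point is a library: left, mean log2 CPM of Dmd, Sgca and Sgcd minus that of Utrn, Dag1 and Sgcb; middle, Dmd reads per Utrn read; right, mean log2 CPM of 16 cardiomyocyte markers. All 6 treated libraries exceed all controls in the middle and right panels, and control 2 lies highest of the controls in the left and right panels.

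Most cardiomyocyte markers were also higher after either siRNA, and the members were correlated with them to different degrees. Over the 9 libraries, Pearson's r with the markers' mean log2 CPM was 0.93 for Sgca, 0.79 for Sgcb and 0.74 for Dag1. It was 0.49 for Dmd, 0.46 for Sgcd and -0.60 for Utrn. Of 16 markers, 13 were higher after DNMT3a siRNA (median log2 fold change 1.25) and 14 after DNMT3b siRNA (median 1.79), and none was lower. Their summed level was 2608 to 3466 CPM in controls, 6241 to 7950 CPM after DNMT3a siRNA and 7750 to 9277 CPM after DNMT3b siRNA, with no overlap between controls and treated libraries. Set against the mean log2 CPM of these markers in the same library, Sgca kept nearly the same distance: -5.77 in controls, -6.06 after DNMT3a siRNA and -5.72 after DNMT3b siRNA. The other members fell behind the markers. Dmd went from -0.93 to -1.72 and -2.42, Sgcd from -3.49 to -4.95 and -4.71, and Dag1 from 3.04 to 1.87 and 1.75, in the same order of groups. The part of the markers in the changes of Sgca, Dmd and Dag1 was not tested.

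Of 10 fibroblast markers 4 were lower after DNMT3a siRNA (median -0.36) and 3 after DNMT3b siRNA (median -0.44), and their summed level was 39485 to 43194 CPM and 37372 to 44194 CPM. Of 10 smooth muscle and pericyte markers, 0 changed in either comparison by edgeR (medians 0.26 and 0.40), with 1 and 3 at an unadjusted p under 0.05, 1 and 0 called by DESeq2 and 0 by limma-voom. They had sums of 5931 to 8593, 8336 to 9384 and 8364 to 9951 CPM in controls, DNMT3a and DNMT3b libraries. Of 10 endothelial and endocardial markers, 0 changed after DNMT3a siRNA by edgeR, DESeq2 or limma-voom, with 2 at an unadjusted p under 0.05. After DNMT3b siRNA 1 of them, Kdr, rose by edgeR, with 5 at an unadjusted p under 0.05 and 2 called by DESeq2. All 10 fold changes were positive there (median 1.01), while the median after DNMT3a siRNA was -0.06. For 8 of the 10 the DNMT3b libraries lay wholly above the controls, where 26.1% of all genes did not overlap in either direction. The sums were 84.9 to 132, 69.6 to 133 and 157 to 164 CPM. Of 10 macrophage markers 3 were lower after DNMT3a siRNA by edgeR, with 10 at an unadjusted p under 0.05 and 6 called by DESeq2, and all 10 fold changes were negative (median -1.86). None was called after DNMT3b siRNA by edgeR, DESeq2 or limma-voom, or at an unadjusted p under 0.05 (median -0.63), and the sums were 23.1 to 61.7, 8.57 to 18.0 and 20.8 to 50.1 CPM. Of 8 epicardial markers, 1 was higher and 3 lower after DNMT3a siRNA, and 1 was lower after DNMT3b siRNA. Of 5 neural and Schwann cell markers tested, 0 changed in either comparison by edgeR. At an unadjusted p under 0.05 there were 2 and 1, and DESeq2 called 0 and 1. Among all 8 listed, Sox10 had at most 6 reads and Tubb3 had 1265 to 4640. The sums over the 8 were 73.2 to 133, 107 to 135 and 44.7 to 67.6 CPM in controls, DNMT3a and DNMT3b libraries. Skeletal muscle markers summed to 10.8 to 20.8, 8.21 to 19.5 and 12.7 to 24.4 CPM.

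The wider complex was followed through 46 further genes in 4 lists, of which 43 passed the filter on low counts. Of these, 6 were higher and 1 lower after DNMT3a siRNA, with a median log2 fold change of 0.01, against 0.02 for all tested genes, of which 4.87% were higher and 5.22% lower. After DNMT3b siRNA 5 were higher and 2 lower, where 3.52% and 2.12% of all genes were, with a median of -0.06 against 0.00. Between the siRNAs, 4 were higher after DNMT3a siRNA and 2 lower, where 4.47% and 5.08% of all genes were, with a median of -0.01 against 0.01. Gxylt1, whose enzyme is known for acting on Notch rather than on dystroglycan, is 1 of these 4 and 1 of the 2 lower after DNMT3b siRNA. The list of the complex's cytoplasmic partners held 6 of the 7 changes after DNMT3a siRNA and 3 of the 7 after DNMT3b siRNA.

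Beside the members, the membrane part of the complex included Sgce and Sspn. Sgce, epsilon-sarcoglycan, the widely expressed relative of Sgca, had a log2 fold change of 0.01 ± 0.08 after DNMT3a siRNA and -0.06 ± 0.08 after DNMT3b siRNA. Sspn, sarcospan, a small membrane protein bound to the sarcoglycans, had 0.32 ± 0.15 and 0.44 ± 0.15. Neither passed in any comparison. In controls Sgce stood at 6.13 and Sspn at 8.80 CPM per kb of exon, between Sgcb and Dmd.

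Among 12 tested cytoplasmic partners, 5 were higher and 1 lower after DNMT3a siRNA (median 0.19), and 3 were higher and 0 lower after DNMT3b siRNA (median 0.41). Dtna encodes alpha-dystrobrevin, which binds dystrophin's end and carries syntrophins. It had 16.0, 13.9 and 14.0 CPM in controls, 31.7, 28.7 and 33.1 CPM with DNMT3a siRNA, and 16.0, 12.7 and 14.9 CPM with DNMT3b siRNA. The DNMT3a libraries lay above all 6 others, which overlapped, and the fitted rise over control was 2.13-fold. The log2 fold change was 1.09 ± 0.11 against control (adjusted p = 0.000339) and 1.10 ± 0.11 against DNMT3b siRNA (adjusted p = 0.000597), and both calls held under all 17 alternatives. After DNMT3b siRNA it was -0.01 ± 0.11 against control (adjusted p = 0.975).

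The syntrophins, adaptors that sit on dystrophin and dystrobrevin, moved in different directions. Sntb1, beta-1 syntrophin, had 6.69, 6.34 and 7.84 CPM in controls, 10.8, 15.2 and 15.6 CPM with DNMT3a siRNA, and 18.1, 14.5 and 16.2 CPM with DNMT3b siRNA, all above the controls. It rose by 1.00 ± 0.16 after DNMT3a siRNA (adjusted p = 0.0035) and by 1.23 ± 0.16 after DNMT3b siRNA (adjusted p = 0.0018) on the log2 scale. Sntb2, beta-2 syntrophin, was lower after DNMT3a siRNA (-0.87 ± 0.14, adjusted p = 0.00414), from 64.0, 48.6 and 72.3 CPM in the controls to 34.8, 29.0 and 37.4 CPM. After DNMT3b siRNA it had 51.6, 47.6 and 45.0 CPM and did not pass against control (-0.36 ± 0.14, adjusted p = 0.173). Ank3, ankyrin-G, which binds dystrophin and beta-dystroglycan, rose by 0.67 ± 0.10 after DNMT3a siRNA (adjusted p = 0.00255) and by 0.66 ± 0.10 after DNMT3b siRNA (adjusted p = 0.00418). Cav3, the caveolin of muscle, which binds dystroglycan's tail, rose by 1.25 ± 0.19 after DNMT3b siRNA (adjusted p = 0.00432). After DNMT3a siRNA, named there after its value was seen, Cav3 rose by 1.09 ± 0.19 (adjusted p = 0.00554). Cav3 is itself expressed in cardiomyocytes, whose markers rose in the same libraries, and their part was not tested. Between the siRNAs, 2 partners were higher after DNMT3a siRNA and 1 lower: Dtna, Ank2 (0.75 ± 0.20, adjusted p = 0.0479; 0.00469 to 0.17 over the alternatives, lost under 10 of 17) and Sntb2 (-0.51 ± 0.14, adjusted p = 0.0482; 0.00868 to 0.135, lost under 8 of 17).

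**Figure D4:**
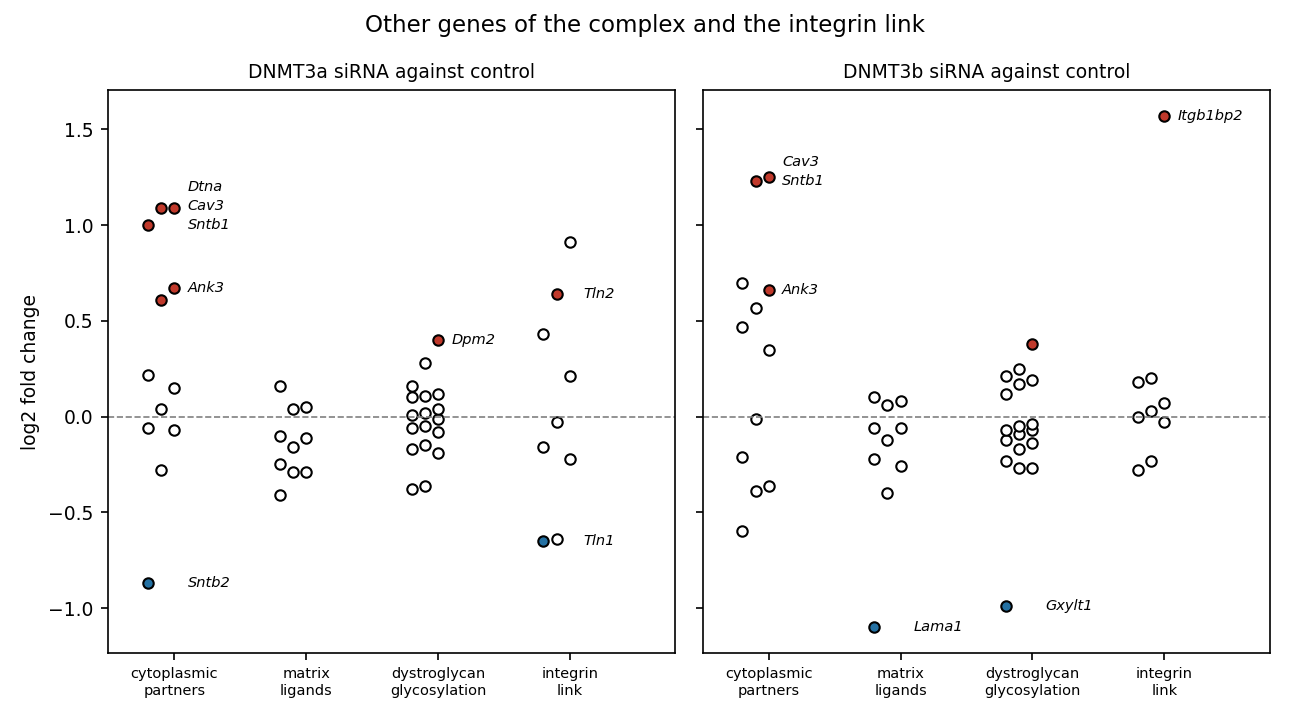
Log2 fold change against control of each tested gene in 3 lists of the wider complex and in the integrin link; red points were higher and blue points lower at an adjusted p under 0.05, open points did not pass, and passing genes described in the text are named. Dtna is named in the left panel (DNMT3a siRNA) but not in the right (DNMT3b siRNA), where the named cytoplasmic partners are Cav3, Sntb1 and Ank3.

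Outside the cell, 0 of 10 tested matrix ligands changed after DNMT3a siRNA by edgeR (median -0.13), with 3 at an unadjusted p under 0.05, 2 called by DESeq2 and 1 by limma-voom. By edgeR 1 was lower after DNMT3b siRNA (median -0.09). This was Lama1, the laminin alpha-1 chain, at 7.44, 10.6 and 5.36 CPM in controls, 9.48, 9.03 and 5.79 CPM with DNMT3a siRNA, and 3.94, 4.01 and 2.94 CPM with DNMT3b siRNA. Its log2 fold change after DNMT3b siRNA was -1.10 ± 0.27 (adjusted p = 0.0382; 0.00155 to 0.165 over the alternatives, lost under 6 of 17). Lama1 also differed between the siRNAs, at 1.16 ± 0.27 (adjusted p = 0.0241; 0.000714 to 0.105, lost under 5 of 17).

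Among the 18 genes listed for dystroglycan's sugar chain, 1 was higher and 0 lower after DNMT3a siRNA (median 0.00). After DNMT3b siRNA 1 was higher and 1 lower (median -0.07). Dpm2, a subunit of the enzyme that makes the mannose donor, was higher after DNMT3a siRNA (0.40 ± 0.11, adjusted p = 0.0376; 0.0165 to 0.155 over the alternatives, lost under 8 of 17). Gxylt1 was lower after DNMT3b siRNA (-0.99 ± 0.18, adjusted p = 0.0112) and was the only gene of this list to differ between the siRNAs (0.95 ± 0.18, adjusted p = 0.0111). Its enzyme is known for adding xylose to Notch rather than to dystroglycan. Gxylt1 is nonetheless 1 of the 18, and it supplied the only lower call in this list. In controls it had 86.1, 52.1 and 83.0 CPM, and after DNMT3b siRNA 39.3, 36.8 and 34.9 CPM. Both Gxylt1 calls were lost without DNMT3b 2 (adjusted p = 0.0553 and 0.0531) or DNMT3b 3 (0.0653 and 0.0569), in ranges from 3.25e-06 to 0.0653 and from 1.4e-05 to 0.0569.

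The patterns most like each member's were sought by Pearson's r of log2 CPM over the 9 libraries among the 10772 protein-coding genes whose average log2 CPM reached 2. Nearest to Dmd were Ints6l (r = 0.982) and Mkrn1 (0.970), and nearest to Utrn were Rab40c (0.915) and Klf5 (0.906). For Dag1 they were Ppm1b (0.954) and Dcaf6 (0.932). Sgca lay nearest to Kcnh2 (0.986), the potassium channel of cardiac repolarization, and Carns1 (0.981). Sgcd lay nearest to Pgk1 (0.967) and Ldha (0.965), both enzymes of glycolysis, and Sgcb to Six4 (0.966) and Acvr1b (0.956). The 9 libraries form 3 groups and the highest of many values are given, so these are descriptions of likeness with no test.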

How the data were processed

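Poly(A) RNA of 9 libraries, 3 per siRNA group, was analysed from 1 table of raw read counts per library deposited by the authors. The submitters' processing notes name FastQC, TopHat2 and HTSeq and the mm10/GRCm38 build, without versions. Neither the annotation release nor the strand setting is given in the sources used here. Lines that name no gene, 49.2% to 56.2% of a table's reads, were not used. Symbols and lengths came from GENCODE mouse release 21, which named 42462 of the 43629 identifiers and left 1167 without a symbol, and RefSeq synonyms were used where GENCODE lacked a listed symbol. Genes were kept by filterByExpr (minimum count 10, minimum total 15) and scaled by TMM. All 9 libraries entered 1 robust quasi-likelihood fit with no term but group (edgeR 4.0.16, R 4.3.3), two-sided, with Benjamini-Hochberg adjustment over 16561 genes. Log2 CPM used a prior count of 2. The fit was tested on simulated data before use.

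The members, the gene lists and the tests were chosen with earlier results of these data known. The 6 members are named in every comparison, and of each list up to 4 changed genes with the smallest adjusted p. Sgce, Sspn and Kdr, and Cav3 after DNMT3a siRNA, were named after their values were seen. Some genes of the lists entered the fit and the counts but are not reported here. DNMT3a and control libraries of the same number deviated together from their group means (r over genes = 0.434, 0.513 and 0.459), so they are read as paired on the data alone: what a number marks is not in the labels. Replicates differed by far more than counting noise (chi-square per degree of freedom 6.94 to 65.0). Alternatives were DESeq2 size factors or library size alone in place of TMM, 2 other filters on low counts, DESeq2 1.42.0, limma-voom (limma 3.58.1), a replicate block, a fit of the 2 groups compared, and leaving out each library.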

Additional observations from a re-analysis of the deposited data

How the results depend on the processing

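Over 17 alternatives for each of the 18 member fold changes, 274 of 306 values kept their direction and side of the threshold, 14 lost a call, 16 gained one and 2 changed sign. Those 2 were not called in any setting: Utrn after DNMT3a siRNA (0.01 with library size alone) and Sgcd after DNMT3a siRNA (0.15 without control 2). Fold changes with 1 library left out ran, after DNMT3a siRNA, from 0.39 to 0.60 for Dmd, 0.71 to 1.37 for Sgca, -0.45 to 0.15 for Sgcd, -0.08 to -0.01 for Utrn and 0.18 to 0.32 for Sgcb. After DNMT3b siRNA they ran from 1.40 to 2.12 for Sgca, 0.15 to 0.76 for Sgcd, 0.32 to 0.41 for Dag1 and 0.30 to 0.37 for Sgcb. Between the siRNAs they ran from 0.23 to 0.46 for Dmd and -0.70 to -0.54 for Sgcd. Size factors in place of TMM ended the Dag1 call (0.36) and left 1 member changed after DNMT3b siRNA. Library size alone gave Sgcb calls (0.31 and 0.36) and a Dmd call between the siRNAs (0.37), with 2 members changed after DNMT3a siRNA and 1 between the siRNAs. It also moved the share of higher genes among the DNMT3a calls from 48.3% to 61.1%, with a median over all genes of 0.07. Without a filter 1 member, Dmd (0.36), differed between the siRNAs. DESeq2 called Sgca after DNMT3a siRNA (0.94; 2 members) and Sgcb after DNMT3b siRNA (0.32), and 1715 genes after DNMT3b siRNA. DESeq2 also called 6 cytoplasmic partners after DNMT3b siRNA (3 by edgeR) and 3 genes of the sugar chain list after DNMT3a siRNA (1 by edgeR). In fits of the compared groups alone, Dmd was lost after DNMT3a siRNA (0.49; 0 members, 946 genes) and Sgcd passed between the siRNAs (-0.61; 1 member). Genes changed ran from 868 to 1839, 287 to 1781 and 524 to 1962 with 1 library left out (DNMT3a, DNMT3b, between siRNAs; 1671, 934 and 1582 in full), and members changed from 0 to 2, 0 to 3 and 0 to 1. The fewest came without DNMT3a 1 (868), DNMT3b 3 (287) and DNMT3b 2 (524), and the 1781 without control 2. With the library number as a block, Sgca passed after DNMT3a siRNA (0.97; 2 members), Sgcb after DNMT3b siRNA (0.33; 1801 genes) and Dmd between the siRNAs (0.34; 1 member, 2513 genes), and no other member's call changed. In the last 2 comparisons the libraries share only a number: same-number r was 0.212, 0.101 and 0.033, and 0.161, 0.078 and 0.041. Per longest transcript, control levels were 3.23 (Dmd), 1.92 (Sgcd), 19.4 (Utrn), 133 (Dag1) and 12.2 (Sgcb) CPM per kb. A prior count of 0.5 moved the difference between the 2 sets of members by less than 1 SD. The cause of these shifts was not tested. Sgca had 40 to 79 reads in controls, which limits its precision.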

Other observations

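A second link between muscle cell and matrix runs through laminin-binding integrin, and 9 genes of it were measured. After DNMT3a siRNA 1 was higher and 1 lower (median log2 fold change -0.03), where 4.87% of all tested genes were higher and 5.22% lower. After DNMT3b siRNA 1 was higher and 0 lower (median 0.03), where 3.52% and 2.12% of all tested genes were. The pair that changed after DNMT3a siRNA were the talins, which join integrin tails to actin. Tln2, the form abundant in heart and brain, went from 67.9, 85.5 and 82.8 CPM in controls to 109.8, 134 and 124 CPM with DNMT3a siRNA (0.64 ± 0.11; edgeR adjusted p = 0.00546). Tln1, the form found in most cells, went from 1451, 1273 and 1657 CPM in controls to 1006, 799 and 982 CPM with DNMT3a siRNA (-0.65 ± 0.12; adjusted p = 0.00702). Their DNMT3a libraries lay wholly above and wholly below the controls, and both calls held under all 17 alternatives. The exons of Tln1 share 3.67% of their bases with Creb3. Between the siRNAs Tln2 differed by 0.44 ± 0.11 (adjusted p = 0.0328; 0.00189 to 0.129 over the alternatives, lost under 5 of 17).

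Itgb1bp2, melusin, a muscle protein that binds the tail of the beta-1 integrin, had 1.90, 2.02 and 1.59 CPM in controls, 2.21, 4.51 and 3.63 CPM with DNMT3a siRNA, and 5.38, 4.34 and 6.70 CPM with DNMT3b siRNA. It was 2.97-fold higher after DNMT3b siRNA (1.57 ± 0.27; adjusted p = 0.00698), a call that held under all 17 alternatives. The cardiomyocyte markers rose in the same libraries, and their part in the talin and melusin values was not tested.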
